A study of Caenorhabditis elegans with 12 samples.

Results

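The genes described here encode the Hedgehog-related and patched-related proteins of Caenorhabditis elegans, taken as all genes whose symbol begins wrt-, grd-, grl-, ptr- or ptc- and that had a summed estimated count of 10 or more in at least 3 of 12 libraries. The deposited tables held 83 genes with such symbols, and 68 of them, of 22010 genes in all, met the count minimum. They were 9 wrt (Warthog), 15 grd (Groundhog), 19 grl (ground-like), 23 ptr (patched-related) and 2 ptc (patched) genes. RNA came from whole animals at the L4 larval stage in 4 groups of 3 libraries, and the study asked how a mutant of affl-2, a gene of the AF4/FMR2 family of nuclear proteins, differs from wild type with and without heat shock. The groups were heated affl-2 mutants, unheated affl-2 mutants, heated wild type (N2) and unheated wild type (N2). The mutants were of strain PS8060, which carries the allele affl-2(sy975), so that the genotype is represented by 1 strain and 1 allele. For each library 250 L4 animals had been picked onto a plate of OP50 bacteria and pooled. The plates, all covered with parafilm, stood for 30 min in a water bath at 33 °C (heated) or at a room temperature of 20 °C (unheated).

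The Warthog, Groundhog and ground-like proteins are secreted proteins of nematodes with their own N-terminal domains, and some of them, mainly Warthog and a few Groundhog proteins, end in the Hog domain that also lets vertebrate Hedgehog cut itself and attach to cholesterol. The patched and patched-related proteins are membrane proteins with a sterol-sensing domain, related to the vertebrate Hedgehog receptor Patched. C. elegans has no Smoothened, the protein through which Patched signals in flies and vertebrates, and the Hedgehog-related genes of the worm are known for roles in epidermis, cuticle, glia and molting. Many of their mRNAs rise and fall once in each larval stage, in step with the molt, so that their level in an L4 library depends on how far through the stage the animals were. In RNA from whole animals, fewer cells of a type and less RNA per cell cannot be told apart.

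The libraries held 17973117 to 22657735 estimated counts, of which these 68 genes took 0.297 to 0.514%. All 8 heat shock protein genes set aside as a check of the treatment rose with heat in both genotypes, and all 8 were lower in heated mutants than in heated N2. The nature of the sy975 mutation is not stated in the labels. The mRNA of affl-2 itself was present in mutants, with 19.2, 16.3 and 17.3 CPM (counts scaled to the size of each library) in heated and 15.2, 15.4 and 19.6 CPM in unheated mutants, against 25.2, 25.6 and 30.0 CPM in heated and 22.2, 25 and 21 CPM in unheated N2. It was lower in mutants than in N2, at −0.61 ± 0.13 (adjusted p = 0.00544) heated and −0.44 ± 0.13 (adjusted p = 0.0374) unheated on the log2 scale. The libraries of the genotypes did not overlap at either temperature. Markers of epidermis, glia, intestine, muscle, neurons, germ line and sperm were detected, in that no marker matched by symbol was at 0 in all 12 libraries. The intestinal marker opt-2 and the neuronal marker unc-17 had no match. Of 10 glial markers, 6 had enough counts to be tested. Nothing in the labels says whether replicates came from separate cultures, so the p-values below measure only the spread between these libraries. All log2 changes are given ± their standard error and all adjusted p-values come from edgeR's quasi-likelihood test with Benjamini-Hochberg adjustment over 15386 genes, with a threshold of 0.05 and 3 libraries per group.

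Per unit of transcript length, the most abundant members encode secreted proteins. The highest mean over all 12 libraries was that of grl-16, at 593 TPM (a level scaled for transcript length and library size), a ground-like gene with a described role in the position of axons in the ventral nerve cord. It was followed by the Groundhog genes grd-5 (536 TPM) and grd-14 (379 TPM) and by grl-4 (154 TPM). The highest Warthog gene was wrt-4 (95.2 TPM), and the highest of the patched-related genes was ptr-23 (47 TPM). The patched genes ptc-1, needed for cytokinesis in the germ line, and ptc-3, needed for water balance and molting, averaged 73.5 and 41.5 TPM. At the other end, grl-25 averaged 0.139 TPM, and 9 of the 68 genes had a mean under 1 CPM. Those 9 reached the minimum count in 4 to 9 of the 12 libraries, and 15 further symbols, among them 12 of the 31 grl genes, stayed under it. The nearest to the minimum on either side were grd-4 and grd-9, with 10 or more counts in 4 libraries each, and grl-13 and ptr-9, with 10 counts at most and in 1 library each.

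On the WBcel235 assembly, 23 of the 68 genes lay on chromosome V, 12 on X, 10 on II, 9 each on I and IV, and 5 on III. Neighbours among them were few. wrt-1 and wrt-10, on opposite strands of chromosome II, end 15 bases apart (chrII:7530996-7533246 and chrII:7533262-7534563). grd-13, grd-3 and grd-10 follow one another on the plus strand of chromosome IV (chrIV:3438312-3439507, chrIV:3439655-3440453 and chrIV:3441055-3441841), and grd-14 and grd-4 lie 184 bases apart on the plus strand of X. Exons of 21 members overlap exons of other genes, and in 7 the overlap exceeds 10% of exon bases: wrt-3 (41.1%, a pseudogene), grl-17 (24.5%), grd-15 (16%), grl-25 (13.7%), grl-22 (13.2%), grd-7 (12.5%) and grd-12 (10.6%). The library kit does not mark strand, so reads in stretches shared with a gene on the other strand cannot be told apart by strand. The pseudogene that overlaps wrt-3 lies on the same strand as wrt-3, where strand would not help. The values of these 7 genes are uncertain. The percentages are of exon bases, and the share of reads concerned is not known. Of these genes, grl-17, grl-22, grd-7, grd-12 and wrt-3 are among the calls below.

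**Figure D1:**
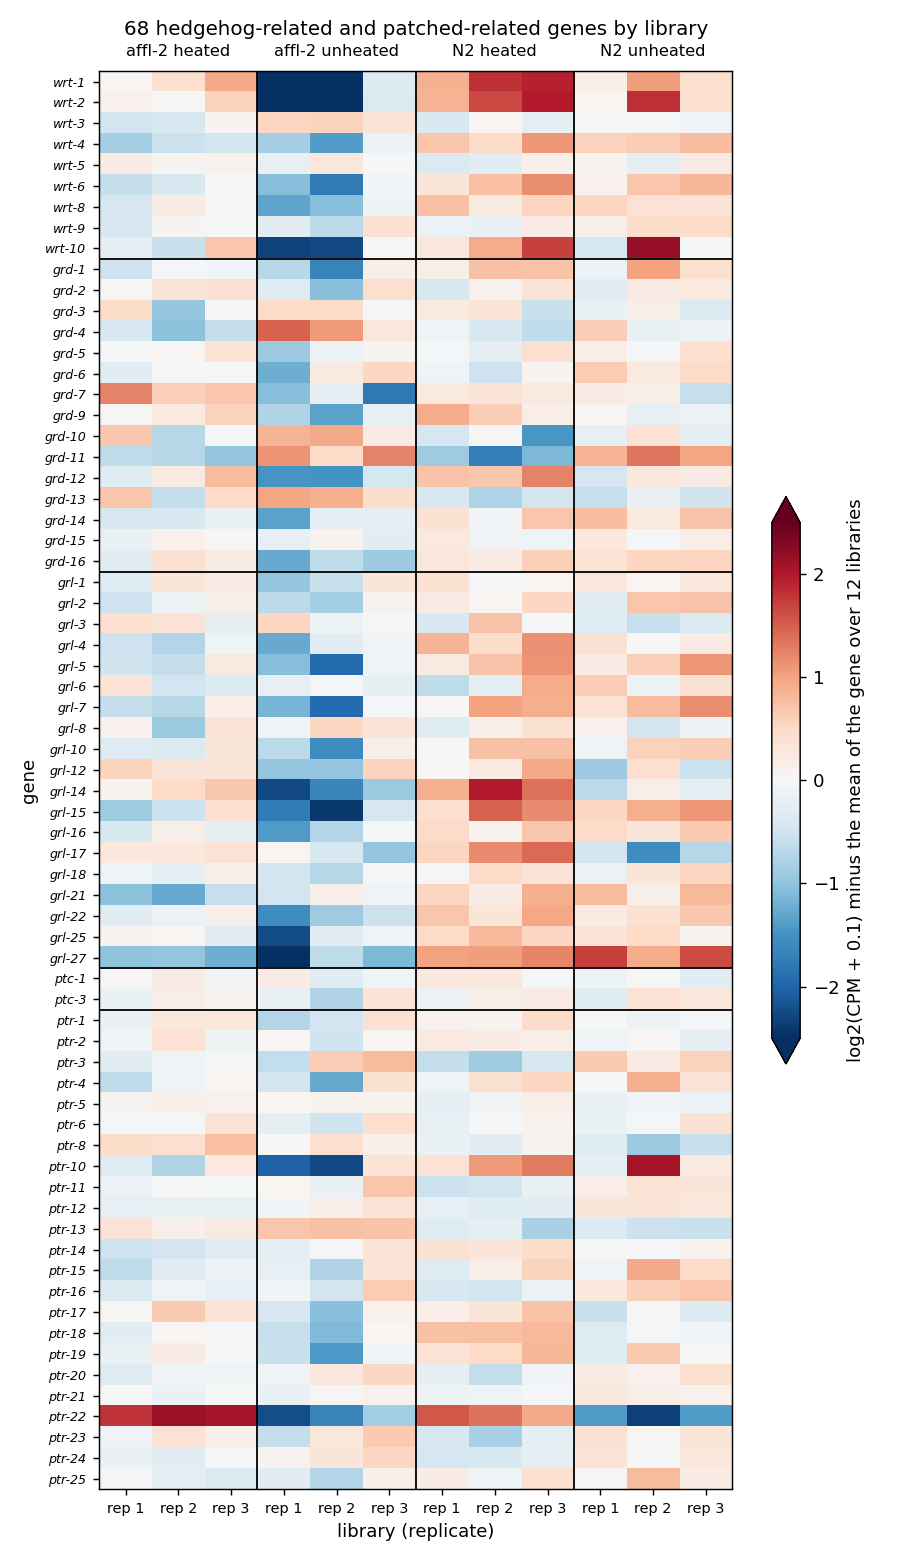
Heat map of the 68 genes (rows, by family) in the 12 libraries (columns, by group), with colour for log2(CPM + 0.1) minus the mean of the gene over all libraries. The column of unheated affl-2 replicate 3 is higher than replicates 1 and 2 of its group for 48 genes, and ptr-22 is high in all 6 heated libraries.

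Replicates of these genes differed more than those of most genes. The standard deviation (SD) of log2 CPM within groups had a median of 0.395 over the 68 genes, against 0.205 over all genes tested and 0.181 over the genes tested with mean CPM between the quartiles of the 68. Of the 68 genes, 59 lay above the median of all genes tested. A list of 36 molting genes (proteases, cuticle and precuticle proteins, their endocytic and transcriptional regulators) had a median of 0.427. The medians of the 68 genes were 0.251 in heated mutants, 0.561 in unheated mutants, 0.291 in heated N2 and 0.267 in unheated N2.

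Among unheated mutants 1 library stood apart. In unheated affl-2 replicate 3, 54 of the 68 genes lay above the mean of their group, 48 had their highest value of the 3 libraries there, and the median deviation of the 68 genes was 0.53 on the log2 scale. All 36 molting genes lay above their group mean in the same library, with a median deviation of 0.68, whereas the median deviation of all genes tested was −0.002. Heated N2 replicate 3 and heated affl-2 replicate 3 deviated the same way by less, with medians of 0.23 and 0.12 and 52 of the 68 genes above the group mean in each. In unheated N2 the lists parted: the molting genes deviated by medians of −0.37 in replicate 1 (6 of 36 above the group mean) and 0.27 in replicate 2 (31 of 36), and the 68 genes by −0.05 and 0.05. The place of the animals within the L4 stage was not recorded in the labels, and its part in these deviations was not tested.

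**Figure D2:**
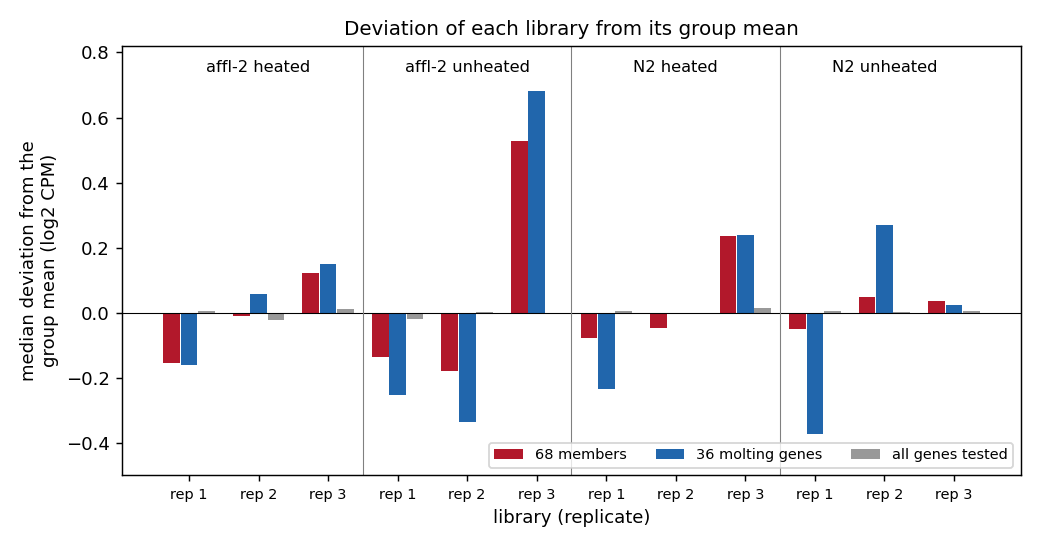
Median deviation of each library from the mean of its group, in log2 CPM, for the 68 genes (red), 36 molting genes (blue) and all genes tested (grey). Unheated affl-2 replicate 3 has the tallest bars, at 0.53 for the 68 genes and 0.68 for the molting genes, and the grey bars stay near 0 in all 12 libraries.

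The genes with the widest spread were 3 Warthog genes, 1 patched-related gene and 1 ground-like gene. wrt-2 had the largest within-group SD, 1.13, with 15.6, 14.6 and 21.4 CPM in heated mutants, 1.75, 0.710 and 11.2 CPM in unheated mutants, 26.2, 45.5 and 56.7 CPM in heated N2 and 14.8, 50.9 and 19 CPM in unheated N2. wrt-10, known in reproductive ageing as a signal received through ptc-1 and ptr-2, had an SD of 1.08, with 13.4, 10.7 and 25.5 CPM in heated mutants, 3.10, 3.22 and 16.1 CPM in unheated mutants, 19.2, 29.9 and 51.8 CPM in heated N2 and 11.6, 71.4 and 15.4 CPM in unheated N2. In both genes replicate 3 was by far the highest of the unheated mutants and replicate 2 by far the highest of unheated N2. The neighbour of wrt-10, wrt-1 (SD 1.06), had 31.7, 40.4 and 59.3 CPM in heated mutants, 3.06, 1.80 and 24 CPM in unheated mutants, 56.3, 108 and 116 CPM in heated N2 and 33.9, 62.9 and 40.3 CPM in unheated N2. ptr-10, whose promoter is used to mark glia, had an SD of 1.01 and 2.09, 1.54 and 3.15 CPM in heated mutants, 0.582, 0.474 and 3.39 CPM in unheated mutants, 3.42, 5.62 and 6.65 CPM in heated N2 and 2.24, 11.5 and 3.10 CPM in unheated N2. The level in unheated affl-2 replicate 3 over the mean of the other 2 unheated mutant libraries was 9.89 for wrt-1, 9.11 for wrt-2, 6.43 for ptr-10 and 5.08 for wrt-10. None of these 4 genes passed the test in any of the 5 comparisons.

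Other members varied little between replicates. Among genes with a mean of at least 1 CPM, ptr-21 had the smallest within-group SD (0.10), at 95.4 to 107 CPM in heated mutants, 95.1 to 116 CPM in unheated mutants, 98.5 to 105 CPM in heated N2 and 116 to 129 CPM in unheated N2. ptr-5 and ptr-12 followed, with an SD of 0.11 and 0.11, although ptr-12 had 24.2, 28.6 and 32.4 CPM in unheated mutants and ptr-5 had 13.9, 15.2 and 18.3 CPM in heated N2. A small group moved the other way in unheated affl-2 replicate 3, with 9 genes at their lowest of the 3 libraries there. Those were grd-3, grd-4, grd-7, grd-10, grd-13, grd-15, grl-6, grl-17 and wrt-3, and they include the 3 adjacent Groundhog genes of chromosome IV.

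**Figure D3:**
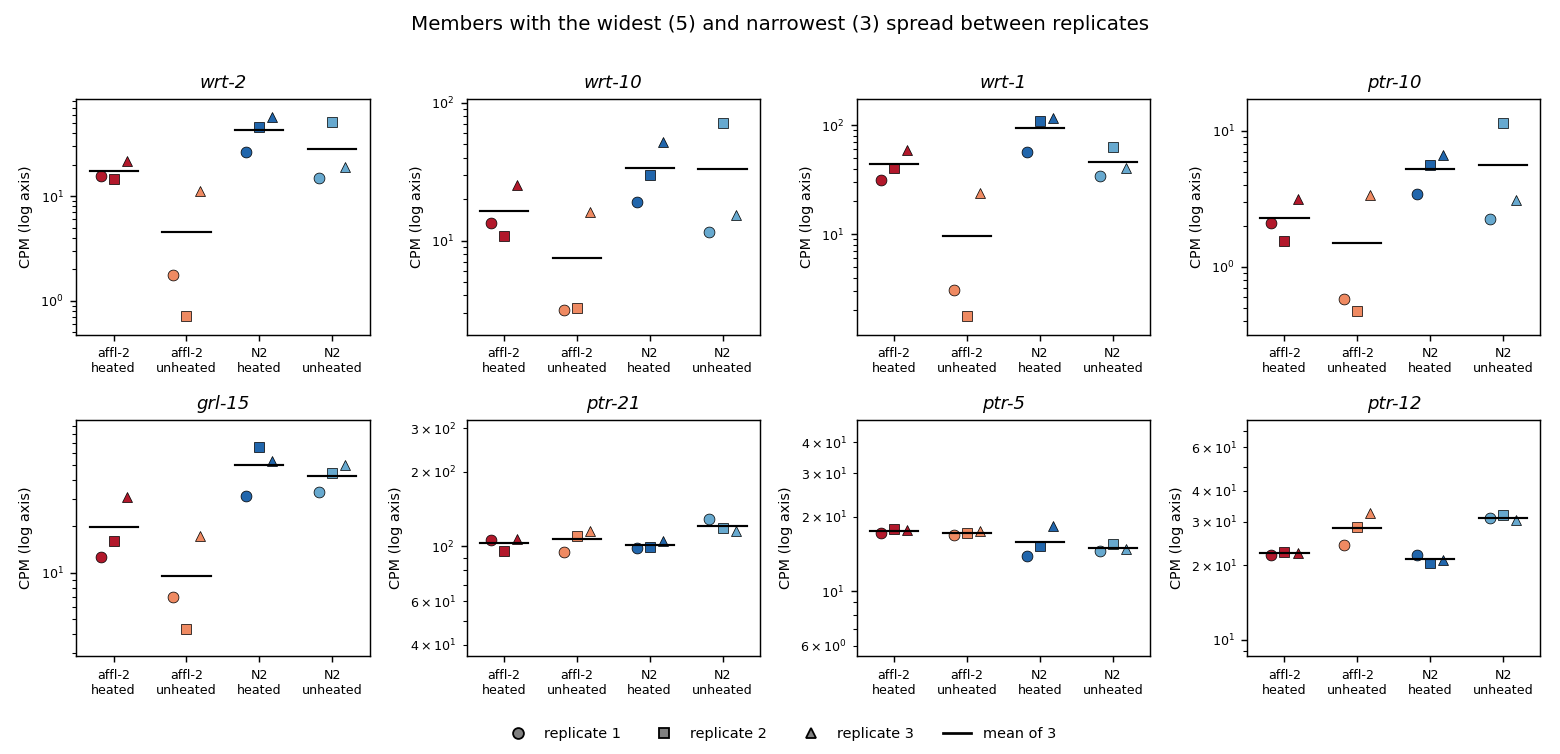
CPM on a log axis in each library (symbols for replicates, line for the mean of 3) for the 5 genes with the widest and the 3 with the narrowest within-group spread. In unheated affl-2 mutants, replicate 3 of wrt-2, wrt-10, wrt-1 and ptr-10 lies 5.08 to 9.89 times above the mean of the other 2 libraries. The points of ptr-21, ptr-5 and ptr-12 lie closer together, with a within-group SD of 0.10 to 0.11 pooled over the groups.

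Between unheated mutants and unheated N2, 9 genes of the secreted families were lower in the mutant, and 1 secreted and 2 patched-related genes were higher. Of the 68 genes, 3 were higher (all genes tested: 6.69%) and 9 were lower (all genes tested: 7.29%), in both directions 12 genes or 17.6%, against 14% of all genes tested. The median log2 change of the 68 genes was −0.46, against −0.00 over all genes tested, and 51 of the 68 changes were negative. The median was −0.70 without unheated affl-2 replicate 3 and −0.25 without unheated affl-2 replicate 1. By family, lower calls were made for 5 of 19 grl, 2 of 15 grd and 2 of 9 wrt genes and for no ptr or ptc gene, and higher calls for 1 grd and 2 ptr genes. In 18 of the 68 genes (26.5%) all mutant libraries lay below all N2 libraries, which held for 15.6% of all genes tested. With unheated affl-2 replicate 3 left out, 4 genes were higher and 27 lower (all genes tested: 8.65 and 7.69%). The members stood high in that library, so these counts are a description and not a test. With the replicate number as labelled as a block, the counts were 4 and 17 (all genes tested, either direction: 17.4%). With the numbers of unheated affl-2 replicates 1 and 2 exchanged, they were 3 and 23 (23.4%). The exchanged numbering was favoured by correlations within these same data, so counts and p-values from it are a description and not a test. Below, the replicate block means the exchanged numbering unless the numbers as labelled are named. DESeq2 gave 3 and 17 (16.7%), and a fit of only the libraries compared 3 and 5 (11%). All mutant libraries lay above all N2 libraries in 6 genes (8.82%), against 15.6% of all genes tested.

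The ground-like gene grl-27 had the lowest change, with 0.533, 2.32 and 1.63 CPM in unheated mutants against 12.3, 7.0 and 11.5 CPM in unheated N2, a log2 change of −2.77 ± 0.34 (adjusted p = 0.000231). No mutant library exceeded 2.32 CPM and the groups did not overlap. wrt-4, the most abundant Warthog gene, had 90.6, 62.1 and 147 CPM in unheated mutants against 244, 253 and 279 CPM in unheated N2, a log2 change of −1.37 ± 0.26 (adjusted p = 0.00536). Here too the groups stayed apart, although replicate 3 was the highest mutant library. The most abundant member of all, grl-16, had 346, 556 and 891 CPM in unheated mutants against 1286, 1132 and 1452 CPM in unheated N2, a log2 change of −1.11 ± 0.28 (adjusted p = 0.0242). The groups of grl-16 did not overlap. The other calls of lower level were grl-15 at −2.16 ± 0.53 (adjusted p = 0.0263), grd-16 at −1.61 ± 0.32 (adjusted p = 0.00434), grl-22 at −1.42 ± 0.27 (adjusted p = 0.00321), grl-14 at −1.37 ± 0.37 (adjusted p = 0.0282), wrt-8, which like grl-16 acts on axon position, at −1.16 ± 0.26 (adjusted p = 0.0122), and grd-14 at −1.11 ± 0.28 (adjusted p = 0.0217). grd-16 had 0.242, 0.426 and 0.335 CPM in unheated mutants against 0.940, 1.08 and 1.08 CPM in unheated N2, so few reads lie behind it.

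Higher in unheated mutants were the patched-related genes ptr-13 and ptr-8 and the Groundhog gene grd-13. ptr-13 had 36.2, 37.5 and 36.7 CPM in unheated mutants against 17.8, 15.5 and 15.3 CPM in unheated N2, a log2 change of 1.18 ± 0.14 (adjusted p = 0.000129). The mutant libraries of ptr-13 were nearly alike and all above the N2 libraries. ptr-8 had 42.4, 56.9 and 46.9 CPM in unheated mutants against 35.0, 22.9 and 28.9 CPM in unheated N2, a log2 change of 0.75 ± 0.16 (adjusted p = 0.0075). For grd-13 the values were 7.32, 6.82 and 4.97 CPM in unheated mutants against 2.42, 3.19 and 2.56 CPM in unheated N2, a log2 change of 1.22 ± 0.28 (adjusted p = 0.0103). Neither ptr-8 nor grd-13 overlapped between the groups, and the neighbours of grd-13, grd-3 (0.44 ± 0.33) and grd-10 (0.72 ± 0.39), did not pass.

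Calls of grl-27, wrt-4, grl-22, grd-16, ptr-13, ptr-8 and grd-13 held without each single library. The other 5 were lost without a library of the pair of groups or, for grd-14, also without heated affl-2 replicate 2: wrt-8 without unheated affl-2 replicate 2 (adjusted p = 0.0599), grl-15 and grl-14 without unheated affl-2 replicate 1 or 2 or unheated N2 replicate 2 or 3 (highest adjusted p = 0.0914 and 0.109), grl-16 without unheated affl-2 replicate 2 or unheated N2 replicate 1 or 3 (0.086) and grd-14 without unheated N2 replicate 1 or 3 (0.0797). Tissue markers moved in the same comparison: of 16 epidermal markers, 14 of them tested, 1 was higher and 3 were lower in unheated mutants, with summed levels of 2030 to 2917 CPM in mutants and 3785 to 4474 CPM in N2. The median log2 change of the 14 was −0.32, with 5 changes positive and 9 negative. The epidermal list shares bli-1 and nhr-25 with the list of molting genes. Of 12 germ line markers 4 were lower (2699 to 3785 CPM in mutants and 3905 to 4275 CPM in N2), and of the 36 molting genes 4 were lower (1219 to 2530 CPM in mutants and 2324 to 4240 CPM in N2). Of 10 intestinal markers tested 2 were lower. Sums over 11 intestinal markers were 3731 to 4670 CPM in mutants and 5522 to 6657 CPM in N2. The median log2 change of the 10 was 0.05, however, with 6 changes positive and 4 negative. The part of these shifts in the result was not tested.

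The genes that passed without unheated affl-2 replicate 3, but not with it, were headed by the widely spread members named above. That library was singled out because the members stood high in it. The values without it therefore describe this choice and are not a test of these genes. Without that library wrt-2 stood at −4.47 (adjusted p = 0.00327), wrt-1 at −4.18 (adjusted p = 0.000451), ptr-10 at −3.34 (adjusted p = 0.0152) and wrt-10 at −3.32 (adjusted p = 0.042). With all libraries the log2 changes of the same genes were −2.63 ± 0.85, −2.25 ± 0.81, −1.91 ± 0.78 and −2.13 ± 0.90. ptr-4, needed for the precuticle that shapes the new cuticle, stood at −1.23 (adjusted p = 0.0226) without that library and −0.76 ± 0.39 (adjusted p = 0.234) with it. Among the genes that passed with the replicate block were grl-7 at −1.77 (adjusted p = 0.00479), grl-5 at −1.63 (adjusted p = 0.000394), wrt-6 at −1.48 (adjusted p = 0.000587), grl-2 of the excretory duct and pore at −0.91 (adjusted p = 0.0197), and grl-21 at −0.72 (adjusted p = 0.00044). The numbering of that block was favoured by correlations within these same data, so these values too are a description and not a test.

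After heat shock, the share of the 68 genes that passed between genotypes was under that of all genes tested. Of the 8 lower calls 5 fell on ground-like genes, and both higher calls fell on patched-related genes. Of the 68 genes, 2 were higher (all genes tested: 10.1%) and 8 lower (all genes tested: 9.57%) in heated mutants than in heated N2, in both directions 14.7%, against 19.7% of all genes tested. The median log2 change was −0.23, against 0.04 over all genes tested, and 46 of the 68 were negative. Lower calls fell on 5 of 19 grl, 1 of 9 wrt and 2 of 23 ptr genes, and both higher calls on ptr genes. In 19 genes (27.9%) all heated mutant libraries lay below all heated N2 libraries, which held for 17.6% of all genes tested. In 7 genes they all lay above (10.3%), against 21.9% of all genes tested. Scaled by library size alone, 12 genes were higher and 7 lower (all genes tested: 31.6 and 5.4%), and with the replicate block 3 were higher and 15 lower (all genes tested, either direction: 33.5%), or 2 and 12 with the numbers as labelled (23.8%). DESeq2 gave 4 and 9 (all genes tested, either direction: 21.9%), and a fit of only the libraries compared 5 and 20 (19%). Scaled by library size alone, the median of the 68 genes was −0.004, against 0.26 over all genes tested.

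grl-27 was again the lowest, with 1.78, 1.79 and 1.5 CPM in heated mutants against 7.46, 7.59 and 8.59 CPM in heated N2, a log2 change of −2.22 ± 0.34 (adjusted p = 0.000664). grl-21, which acts on fat storage through ptr-24, had 11.6, 9.79 and 15.9 CPM in heated mutants against 34.5, 26.9 and 43.6 CPM in heated N2, a log2 change of −1.50 ± 0.24 (adjusted p = 0.00107). wrt-4 had 90.9, 113 and 119.6 CPM in heated mutants against 266, 227 and 349 CPM in heated N2, a log2 change of −1.38 ± 0.26 (adjusted p = 0.00415). In all 3 genes the groups lay far apart, with the highest mutant library below the lowest N2 library. ptr-14 had 50.2, 51.6 and 59.0 CPM in heated mutants against 93.8, 88.7 and 98 CPM in heated N2, a log2 change of −0.80 ± 0.13 (adjusted p = 0.000726). The abundant grl-4 had 63.3, 53.9 and 83.6 CPM in heated mutants against 163, 122 and 199 CPM in heated N2, a log2 change of −1.27 ± 0.28 (adjusted p = 0.00961). Neither ptr-14 nor grl-4 overlapped between the groups. The remaining lower calls were grl-14 at −1.07 ± 0.31 (adjusted p = 0.0316), ptr-18, which with grl-7 keeps neural progenitors quiescent in starved larvae, at −0.84 ± 0.21 (adjusted p = 0.017), and grl-22 at −0.78 ± 0.25 (adjusted p = 0.0418). ptr-8 and ptr-13 were the higher ones, at 0.66 ± 0.16 (adjusted p = 0.0119) and 0.66 ± 0.14 (adjusted p = 0.00501).

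Calls of grl-27, grl-21, wrt-4, ptr-14, grl-4 and ptr-13 held without each single library. That of ptr-8 was lost without heated affl-2 replicate 3 or heated N2 replicate 2 (highest adjusted p = 0.0577), that of ptr-18 without heated affl-2 replicate 1 or 3 (0.0798), that of grl-14 without any heated affl-2 replicate or heated N2 replicate 2 or 3 (0.144), and that of grl-22 without any heated affl-2 replicate, heated N2 replicate 1 or 3 or unheated N2 replicate 1 (0.158). Of the epidermal markers 4 of 14 tested were lower in heated mutants and none was higher, with sums of 2872 to 3375 CPM in mutants and 4623 to 6125 CPM in N2. The median log2 change of the 14 was −0.45, with 6 changes positive and 8 negative. Of the germ line markers 4 of 12 were lower in heated mutants (2699 to 3656 CPM in mutants and 3943 to 4536 CPM in N2) and of 15 sperm markers 4 were higher (1062 to 1481 CPM in mutants and 869.9 to 1068 CPM in N2). Of 10 intestinal markers tested 1 was higher and 2 were lower. Sums over 11 intestinal markers were 2920 to 3995 CPM in mutants and 4752 to 5929 CPM in N2. The median log2 change of the 10 was 0.20, however, with 6 changes positive and 4 negative. The part of these marker shifts in the result was not tested.

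The comparisons of genotypes at the 2 temperatures share no library, but both come from 1 model of all 12 libraries with a joint estimate of the spread. At both temperatures ptr-13 and ptr-8 were higher and grl-14, grl-22, grl-27 and wrt-4 lower in the mutant. These were 4 of the 9 genes lower without heat (44.4%) and 4 of the 8 lower after it (50.0%). Of all genes lower without heat 65.3% were also lower after it, and of all genes lower after heat 49.7% were also lower without it. The higher genes were 2 of the 3 without heat (66.7%) and 2 of the 2 after it, against 59.4 and 39.1% of all genes higher in each comparison, and no gene passed in opposite directions. Summed over a family, the 9 wrt genes reached 263 to 380 CPM in heated mutants against 549 to 851 CPM in heated N2, and 141 to 354 CPM in unheated mutants against 477 to 661 CPM in unheated N2. The 19 grl genes summed to 922 to 1215 CPM in heated mutants against 1520 to 2102 CPM in heated N2, and to 489 to 1178 CPM in unheated mutants against 1566 to 2007 CPM in unheated N2. The 15 grd genes summed to 519.6 to 622 CPM in heated mutants against 542 to 775 CPM in heated N2, and to 323 to 666 CPM in unheated mutants against 704 to 832 CPM in unheated N2. The sums of the wrt and grl genes overlapped between genotypes at neither temperature, and those of the grd genes overlapped after heat shock but not without it. The grl sums rest largely on 1 gene, grl-16, which averaged 991 CPM over all libraries and did not pass between heated genotypes. The most abundant wrt gene, wrt-4, averaged 187 CPM. The 23 ptr genes overlapped in their sums, at 1004 to 1175 CPM in heated mutants against 1106 to 1252 CPM in heated N2 and at 939 to 1413 CPM in unheated mutants against 1165 to 1207 CPM in unheated N2.

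**Figure D4:**
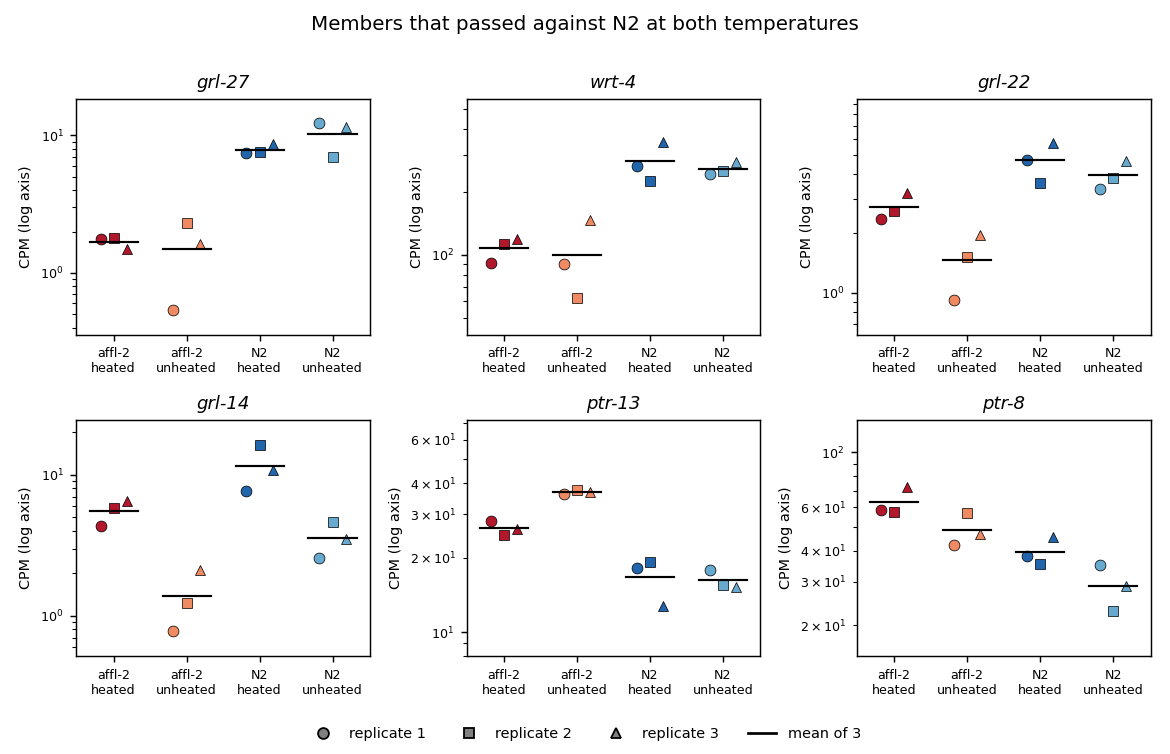
CPM on a log axis in each library (symbols for replicates, line for the mean of 3) for the 6 genes that passed against N2 both with and without heat shock. grl-27, wrt-4, grl-22 and grl-14 are lower and ptr-13 and ptr-8 higher in affl-2 mutants than in N2 at the same temperature.

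Heat shock of 30 min changed a minority of these genes in either genotype. In affl-2 mutants 6 of the 68 genes were higher after heat shock (all genes tested: 10.6%) and 8 lower (all genes tested: 10.8%), and in N2 4 were higher (all genes tested: 9.52%) and 7 lower (all genes tested: 12%). The median log2 change was 0.17 in mutants and −0.01 in N2, against 0.03 and −0.01 over all genes tested. Without unheated affl-2 replicate 3 the median in mutants was 0.44. The median in N2 was near 0 and changed sign, at 0.14 without heated N2 replicate 1 and −0.10 without heated N2 replicate 3. In either direction these were 14 of the 68 genes in mutants and 11 in N2, shares near or under the 21.4 and 21.5% of all genes tested. All heated libraries lay above all unheated ones for 11 genes in mutants and 13 in N2 (all genes tested: 18 and 19.9%), and below them for 8 in mutants and 10 in N2 (all genes tested: 17.2 and 21.2%). Without unheated affl-2 replicate 3, 21 genes were higher and 5 lower in mutants (all genes tested: 9.37 and 10.6%). The members stood high in that library, so this too is a description and not a test. With the replicate block, 15 were higher and 9 lower in mutants (all genes tested, either direction: 31.1%), and 10 higher and 8 lower in N2 (all genes tested, either direction: 30.3%). With the numbers as labelled the block gave 7 and 9 in mutants (25.4%) and 6 and 7 in N2 (25%). In N2, DESeq2 gave 9 and 8 (23.1%), and a fit of only the libraries compared 9 and 10 (24.7%).

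ptr-22, a patched-related gene on chromosome V (chrV:18919221-18931379), had the highest change in each genotype. It had 16.7, 21 and 20.0 CPM in heated mutants against 0.921, 1.42 and 2.53 CPM in unheated mutants, a log2 change of 3.56 ± 0.30 (adjusted p = 3.32e-06). In N2, heated animals had 13.8, 12.1 and 9.10 CPM of ptr-22, against 1.70, 0.846 and 1.72 CPM in unheated animals, a log2 change of 3.03 ± 0.31 (adjusted p = 1e-05). Heated and unheated libraries stood far apart in both genotypes, with no overlap. The ground-like gene grl-14 had 4.31, 5.79 and 6.54 CPM in heated mutants against 0.776, 1.23 and 2.10 CPM in unheated mutants, a log2 change of 2.01 ± 0.37 (adjusted p = 0.00157). In N2 the values of grl-14 were 7.74, 16.3 and 10.8 CPM in heated animals against 2.55, 4.60 and 3.49 CPM in unheated animals, a log2 change of 1.71 ± 0.33 (adjusted p = 0.0019). Its heated and unheated groups did not overlap in either genotype, and its level was lower in mutants at both temperatures.

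The Groundhog gene grd-11 fell with heat in both genotypes. It had 1.87, 1.79 and 1.45 CPM in heated mutants against 6.60, 4.21 and 7.12 CPM in unheated mutants, a log2 change of −1.81 ± 0.25 (adjusted p = 0.000165). In N2 it had 1.57, 0.837 and 1.31 CPM in heated animals against 5.5, 7.66 and 6.0 CPM in unheated animals, a log2 change of −2.36 ± 0.27 (adjusted p = 1.9e-05). All heated libraries lay below all unheated ones. The patched-related genes ptr-24, named above with grl-21, and ptr-12 fell by less, at −0.48 ± 0.12 (adjusted p = 0.0126) and −0.34 ± 0.11 (adjusted p = 0.0404) in mutants and −0.56 ± 0.12 (adjusted p = 0.00465) and −0.56 ± 0.11 (adjusted p = 0.00233) in N2. Counts of ptr-12 were not whole in all 12 libraries, so part of its reads were shared with other sequences by the authors' quantification. A count was taken as whole within 0.02, and the other members with counts that were not whole were ptc-1 in 9 libraries and grl-16 in 4. The heat comparisons of the 2 genotypes share no library but come from the same model of all 12 libraries. The genes that passed in both genotypes were 2 of the 6 higher in mutants (33.3%) and of the 4 higher in N2 (50.0%). Among lower genes they were 3 of the 8 in mutants (37.5%) and of the 7 in N2 (42.9%). Over all genes the shares were 55.9% of those higher in mutants, 62.5% of those higher in N2, 69.3% of those lower in mutants and 62.4% of those lower in N2. None passed in opposite directions.

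Other calls were made in 1 genotype, and for none of them did the test of the difference between genotypes pass. In mutants grd-7 (2.22 ± 0.47, adjusted p = 0.00406), grd-12 (1.38 ± 0.35, adjusted p = 0.0124), grd-16 (1.21 ± 0.33, adjusted p = 0.0175) and grl-22 (0.89 ± 0.27, adjusted p = 0.0323) were higher after heat shock. grd-7 had 1.11, 0.675 and 0.727 CPM in heated mutants against 0.145, 0.332 and 0.0478 CPM in unheated mutants. grd-16 had 0.578, 0.965 and 0.824 CPM in heated mutants against 0.242, 0.426 and 0.335 CPM in unheated mutants. The groups of neither gene overlapped, but few reads lie behind them. Lower in heated mutants were grd-4 (−1.95 ± 0.42, adjusted p = 0.00442), grl-21 (−0.79 ± 0.24, adjusted p = 0.0316), wrt-3 (−0.76 ± 0.20, adjusted p = 0.0147), ptr-13 (−0.48 ± 0.14, adjusted p = 0.0196) and ptr-14 (−0.46 ± 0.13, adjusted p = 0.019). grd-4 also rested on few reads, with 0.355, 0.193 and 0.291 CPM in heated mutants against 1.55, 1.14 and 0.622 CPM in unheated mutants, and its counts ran between 4 and 32 over all libraries. It reached 10 counts in 4 libraries, and grd-7 did in 5. Each met the count minimum only with the mutant group where it was high, unheated for grd-4 and heated for grd-7. Their calls with heat in mutants are therefore a description and not a test. In N2 grl-17 (2.32 ± 0.43, adjusted p = 0.00135) and ptr-18 (0.90 ± 0.21, adjusted p = 0.00951) were higher after heat shock. ptr-18 had 209, 209 and 221 CPM in N2 after heat shock and 99.9, 123 and 119.7 CPM in unheated N2, with no overlap. grl-17 had 0.729, 1.2 and 1.42 CPM in N2 after heat shock and 0.313, 0.0940 and 0.246 CPM in unheated N2, again with no overlap but few reads. ptr-3 (−1.11 ± 0.29, adjusted p = 0.0159), ptr-16 (−0.86 ± 0.22, adjusted p = 0.0134), ptr-11 (−0.66 ± 0.18, adjusted p = 0.0151) and ptr-20 (−0.52 ± 0.16, adjusted p = 0.0357) were lower in heated N2. Of the 7 lower calls in N2, 6 were patched-related genes, but 7 of 68 genes is a share under the 12% of all genes tested.

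In mutants, calls of ptr-22, grl-14, grd-11, ptr-24, grd-7 and grd-4 held without each single library, and in N2 those of ptr-22, grl-14, grl-17, ptr-18, grd-11, ptr-24 and ptr-12. For grd-7 and grd-4 this is no test, as each met the count minimum only with the group where it was high. Lost in mutants were grd-12 without heated replicate 3 or unheated replicate 2 (highest adjusted p = 0.0552), grd-16 without heated replicate 2 or unheated replicate 1 (0.0825), grl-22 without heated replicate 2 or 3 or unheated replicate 1 or 2 (0.132), grl-21 without heated replicate 1 or 2 or unheated replicate 2 or 3 (0.122), wrt-3 without heated replicate 1 or 2 (0.0708), ptr-13 without replicate 2 of either group (0.0552) and ptr-14 without heated replicate 1 or unheated replicate 3 (0.0776). ptr-12 in mutants was lost without any of the heated affl-2 replicates, unheated affl-2 replicate 2 or 3, heated N2 replicate 1 or 2 or unheated N2 replicate 2 or 3 (0.116). Lost in N2 were ptr-3, ptr-16, ptr-11 and ptr-20 without heated replicate 1 or 2, and also ptr-3 without unheated replicate 1, ptr-16 without unheated replicate 3 and ptr-20 without either of these (highest adjusted p = 0.0692, 0.0565, 0.069 and 0.161). Without unheated affl-2 replicate 3, wrt-1 stood at 4.14 (adjusted p = 0.000226) and wrt-2 at 3.77 (adjusted p = 0.00532) in mutants, against 2.19 ± 0.81 (adjusted p = 0.0903) and 1.92 ± 0.85 (adjusted p = 0.148) with it. Both genes stood high in the library left out, so the values without it are not a test of them. Muscle markers moved with heat: 9 of 10 were higher and 1 lower in heated mutants (sums of 15978 to 19837 CPM in heated and 10722 to 12044 CPM in unheated mutants), and 5 were higher and 1 lower in heated N2 (20845 to 22235 CPM in heated and 11518 to 15675 CPM in unheated N2). Neuronal markers had 2 of 11 higher and 5 lower in mutants and 1 higher and 6 lower in N2, and of 10 intestinal markers 3 were lower in heated mutants and 4 in heated N2. The part of these shifts in the result was not tested.

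**Figure D5:**
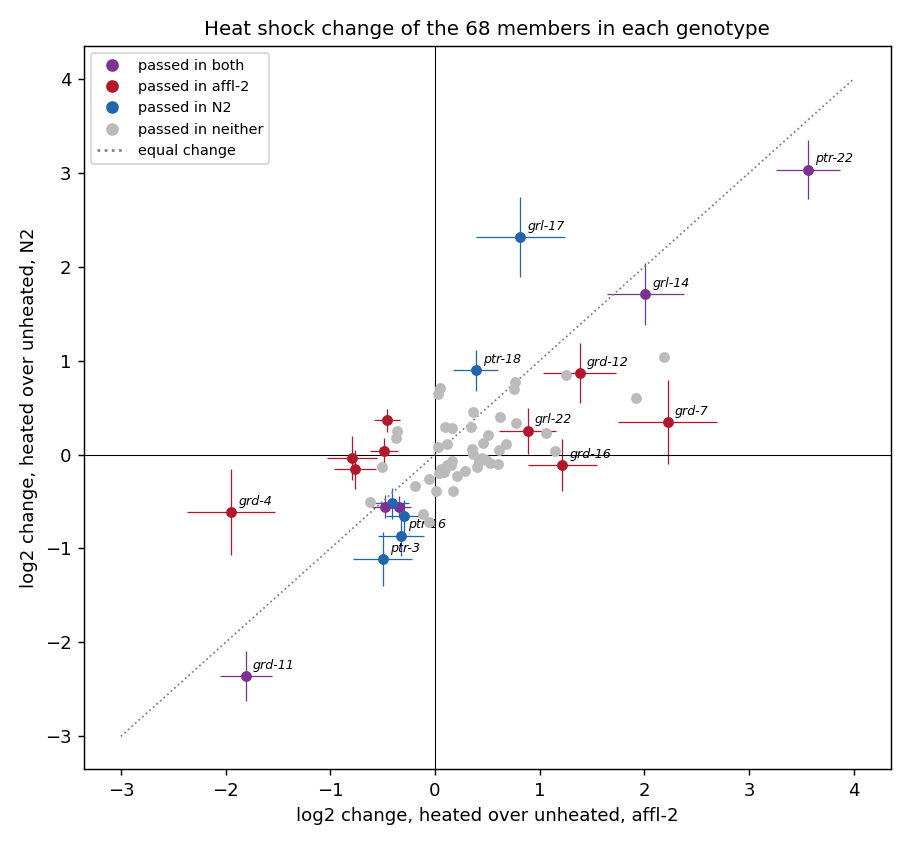
Log2 change after heat shock in affl-2 mutants (x axis) and in N2 (y axis) for the 68 genes, with bars for the standard error of genes that passed in at least 1 genotype. ptr-22 (3.56 and 3.03), grl-14 (2.01 and 1.71) and grd-11 (−1.81 and −2.36) lie near the line of equal change.

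Whether the heat response differed between the genotypes was tested as the interaction of genotype and heat shock. It passed for none of the 68 genes in edgeR's quasi-likelihood test (all genes tested: 0.715%), for 6 at an unadjusted p under 0.05 (all genes tested: 6.67%), and for 1 in DESeq2 (all genes tested: 1.43%). ptr-14 came nearest, with 50.2, 51.6 and 59.0 CPM in heated mutants against 61.2, 69.8 and 90 CPM in unheated mutants, and 93.8, 88.7 and 98 CPM in N2 after heat shock and 70.8, 70.4 and 77 CPM in unheated N2. Its heated libraries all lay below the unheated ones in mutants and all above them in N2, where the change did not pass (0.36 ± 0.13, adjusted p = 0.0548). The difference between the genotypes was −0.82 ± 0.18 on the log2 scale (adjusted p = 0.0565). With the replicate block the interaction passed for ptr-14 at −0.81 (adjusted p = 0.00237) and for grl-21 at −0.77 (adjusted p = 0.0307), against 1.44% of all genes tested. With the numbers as labelled ptr-14 passed (adjusted p = 0.0123) and grl-21 did not (adjusted p = 0.374; all genes tested: 0.812%), and DESeq2 gave ptr-14 an adjusted p of 0.00222. The other genes at an unadjusted p under 0.05 were grd-7 (1.87 ± 0.67), grd-16 (1.32 ± 0.43), grl-17 (−1.50 ± 0.63), grl-21 (−0.76 ± 0.33) and ptr-13 (−0.53 ± 0.19). As grd-7 met the count minimum only with the heated mutants, its value is a description and not a test. Without unheated affl-2 replicate 3, wrt-1 passed at 3.09 (adjusted p = 0.0346), against 1.15 ± 1.09 (adjusted p = 0.943) with it (all genes tested without it: 0.756%). As wrt-1 stood high in the library left out, the value without it is not a test of wrt-1.

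The patched genes passed in no comparison. ptc-1 had 419, 470.3 and 384 CPM in heated mutants, 474, 336 and 383 CPM in unheated mutants, 492, 490.1 and 398 CPM in heated N2 and 377, 409.6 and 337 CPM in unheated N2. ptc-3 had 176, 220.3 and 207 CPM in heated mutants, 173, 117 and 249 CPM in unheated mutants, 179, 219 and 227 CPM in heated N2 and 159.6, 254 and 239.9 CPM in unheated N2. The groups of either gene overlapped in each comparison, and log2 changes between pairs of groups ran between −0.11 ± 0.14 (heated mutants over heated N2) and 0.30 ± 0.14 (heat in N2) for ptc-1 and between −0.28 ± 0.24 (unheated mutants over unheated N2) and 0.16 ± 0.24 (heat in mutants) for ptc-3. The interaction was −0.20 for ptc-1 and 0.23 for ptc-3. The change of ptc-1 with heat in N2 passed with the replicate block (0.30, adjusted p = 0.0224), but not with the numbers as labelled (0.29, adjusted p = 0.0828). ptr-2, which acts in cytokinesis and the eggshell and is named with ptc-1 in the response to wrt-10, had 114 to 159 CPM in heated mutants, 88.6 to 129 CPM in unheated mutants, 138 to 148 CPM in heated N2 and 107 to 127 CPM in unheated N2, and passed in no comparison.

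In all, 29 of the 68 genes passed in at least 1 comparison between a pair of groups, namely 3 of 9 wrt, 7 of 15 grd, 8 of 19 grl, 11 of 23 ptr and 0 of 2 ptc genes, against 43% of all genes tested. The other 39 passed in none. Among those 39, grd-5, the second most abundant per length, had 137, 146 and 179 CPM in heated mutants, 74.5, 127 and 147 CPM in unheated mutants, 136, 118 and 185 CPM in heated N2 and 158, 136 and 189 CPM in unheated N2. The glial gene grl-18 had 1.16 to 1.55 CPM in heated mutants, 0.805 to 1.34 CPM in unheated mutants, 1.35 to 1.97 CPM in heated N2 and 1.25 to 2.07 CPM in unheated N2, and its groups overlapped in each comparison.

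Other genes tied to Hedgehog or sterol-sensing proteins were set beside the members. Among them, che-14 was also on the list of epidermal markers and daf-6 on that of glial markers. Of a list of 13 (hog-1, qua-1, che-14, ptd-2, daf-6, ncr-1, ncr-2, scp-1, phg-1, hhat-1, hhat-2, tra-1 and hmgr-1), 4 were higher and 0 lower after heat shock in mutants, 3 higher and 0 lower after it in N2, and 1 each was lower in heated and in unheated mutants than in N2. scp-1, which resembles the vertebrate sterol sensor SCAP and has the sterol-sensing domain in common with patched proteins, had 144, 149 and 143 CPM in heated mutants against 53.0, 51.4 and 55.3 CPM in unheated mutants, a log2 change of 1.45 ± 0.08 (adjusted p = 5.87e-08). In N2 it had 818, 757 and 772 CPM in heated animals against 51.0, 50.9 and 47.9 CPM in unheated animals, a log2 change of 3.97 ± 0.09 (adjusted p = 2.64e-12). All heated libraries lay above all unheated ones, and the rise was smaller in mutants, with an interaction of −2.52 ± 0.12 (adjusted p = 4.69e-08). Mean TPM of scp-1 rose by more than its CPM, from 17.9 to 68.2 in mutants and from 13.8 to 390 in N2. The length of the transcripts counted may thus differ with heat, which was not tested. Overlap of exons with other genes was examined for the 68 members and not for scp-1. ncr-1, related to the human cholesterol transporter NPC1, rose with heat in mutants (0.99 ± 0.16, adjusted p = 0.000559) and in N2 (0.87 ± 0.16, adjusted p = 0.0013), as did tra-1, the worm's Gli-type transcription factor, at 0.61 ± 0.16 (adjusted p = 0.0123) and 0.66 ± 0.16 (adjusted p = 0.0072). phg-1, related to the vertebrate growth arrest gene Gas1, rose in mutants at 0.92 ± 0.23 (adjusted p = 0.0133), with 0.64 ± 0.23 (adjusted p = 0.0658) in N2, and ncr-2 was lower in unheated mutants than in unheated N2 at −0.40 ± 0.11 (adjusted p = 0.0275).

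Of the 36 molting genes, 3 were higher and 1 lower after heat shock in mutants and 3 higher and 2 lower in N2, among them grh-1 at 1.39 ± 0.31 (adjusted p = 0.00795) in mutants and 1.24 ± 0.30 (adjusted p = 0.0123) in N2 and the kinase gene nekl-2 at 1.34 ± 0.13 (adjusted p = 8.35e-06) in mutants and 1.46 ± 0.13 (adjusted p = 2.42e-06) in N2. In unheated mutants 4 were lower and 0 higher than in N2, among them the cuticle collagen bli-2 (−2.42 ± 0.53, adjusted p = 0.0166) and the protease nas-37 (−1.77 ± 0.43, adjusted p = 0.0231). In heated mutants 1 was lower and 1 higher than in heated N2. Their medians of log2 change were 0.29 with heat in mutants, 0.03 with heat in N2, −0.27 between heated and −0.59 between unheated genotypes, beside 0.17, −0.01, −0.23 and −0.46 for the 68 Hedgehog-related and patched-related genes.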

How the data were processed

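The authors deposited 1 table per library with the estimated count and TPM of each transcript, made by kallisto on WBcel235 with base calls converted by bcl2fastq 1.8.4, per the submitters' processing notes (the kallisto version is not given in the sources used here). TPM as deposited by the authors was summed per gene and used only to rank levels between genes and beside the CPM of scp-1. Poly(A) RNA was sequenced as single reads of 50 nt with a kit that does not mark strand, per the labels' protocols.

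Estimated counts deposited by the authors were summed per gene (22010 genes, symbols and positions from Ensembl release 115) and rounded to whole numbers. edgeR 4.0.16 in R 4.3.3 scaled the libraries by TMM (factors 0.8471 to 1.1508), kept 15386 genes by filterByExpr with a minimum count of 10 (6624 were set aside), estimated the 4 groups in 1 robust quasi-likelihood model of the 12 libraries, with 8 residual df, and adjusted p by Benjamini-Hochberg. All 68 members were tested. CPM are TMM-scaled. Within-group SDs used log2 CPM with a prior count of 2. The scripts were tested on simulated data. Alternatives used DESeq2 1.42.0, other scaling and filters, a replicate block and leaving out each library.

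The members and lists were chosen with earlier results of these data known. Named genes were the members that passed (up to 10 per direction), the highest mean TPM of a family, both ptc genes, the 5 widest and 3 narrowest spreads, called genes of the pathway list and up to 3 molting genes. Other members were named for a described role or after their values were seen. Samples with the same replicate number correlated in their deviations from the group means by more than 0.1 in 13 of 18 pairs as labelled (−0.341 to 0.351). The library numbers in the labels and in the deposited tables' names disagreed for unheated affl-2 replicates 1 and 2. With these exchanged all 18 correlations lay between 0.116 and 0.351, and the block uses that numbering. No promoter sequence was used here.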

Additional observations from a re-analysis of the deposited data

How the results depend on the processing

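Of 47 calls of single members, 26 held under every alternative in which they were tested. Among these 26, grd-4, grd-7 and grl-17 had 20 alternatives and not 21, as they failed the filter of 1 CPM in 3 libraries. Over those 47 calls, 984 alternative values were computed, of which 903 stayed on their side of the threshold, 81 lost significance and 0 changed sign. Depth limits the 9 members under 1 CPM, and 3 libraries per group limit all tests. Counts are given as higher and lower members. With the replicate block (unheated affl-2 numbers 1 and 2 exchanged) they were 10 and 8 for heat in N2, 15 and 9 for heat in mutants, 3 and 23 between unheated genotypes, 3 and 15 between heated genotypes and 0 and 2 for the interaction, with 30.3, 31.1, 23.4, 33.5 and 1.44% of all genes tested called. With the block as numbered in the labels they were 6 and 7, 7 and 9, 4 and 17, 2 and 12, and 0 and 1, with 25, 25.4, 17.4, 23.8 and 0.812% of all genes tested called. DESeq2 gave 9 and 8, 7 and 8, 3 and 17, 4 and 9, and 0 and 1, with 23.1, 23, 16.7, 21.9 and 1.43% of all genes tested called. With only the libraries compared they were 9 and 10, 4 and 7, 3 and 5, and 5 and 20, with 24.7, 15.5, 11 and 19% of all genes tested called. Scaling by library size alone gave 4 and 9, 5 and 9, 6 and 12, 12 and 7, and 0 and 1, and moved the median of all genes by −0.182, −0.142, 0.183, 0.223 and 0.04 in the same order. Size factors of the RLE type and no filter on low counts each gave the interaction 1 lower member.

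Leaving out 1 library at a time, heat in N2 gave 4 to 8 higher and 3 to 9 lower members, heat in mutants 4 to 21 and 4 to 11, unheated genotypes 3 to 4 and 5 to 27, heated genotypes 1 to 5 and 5 to 13, and the interaction 0 to 1 in each direction. The shares of all genes called ran from 14.7 to 23.4, 15.8 to 21, 7.83 to 16.3, 9.48 to 25 and 0.514 to 0.823% in the same order. The number of members with a spread above the median of all genes was 56 to 60, against 59 with all libraries. Of the single genes recomputed, namely the 47 calls, both ptc genes and the interaction of 3 more genes, the sign changed for ptc-1 and ptc-3, which passed in no comparison. With library size alone ptc-1 stood at 0.11 and ptc-3 at 0.18 between heated genotypes, and ptc-1 at −0.047 for heat in mutants. Without 1 library, ptc-1 ran between −0.012 and 0.20 between unheated genotypes and between −0.018 and 0.21 for heat in mutants. ptc-3 ran between −0.15 and 0.036 between heated genotypes, −0.22 and 0.061 for heat in N2, −0.074 and 0.44 for heat in mutants and −0.014 and 0.49 for the interaction. The median of the 68 genes for heat in N2 was −0.01 with all libraries and −0.10 to 0.14 without 1 library. The cause was not tested.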
